A study of Rattus norvegicus with 352 samples.

Results

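The 40 genes described here are genes of microglia, of the macrophages that line the borders of the brain, and of the complement system. They were chosen by gene symbol from a list, with no cut on their measured values but with earlier results of these data known. All 40 were found among the 38354 genes of the table. By role they comprise 11 surface genes of microglia, 13 genes of microglial signalling and its transcription factors, 6 genes of lysosomes and innate sensing, 5 genes of border macrophages and antigen presentation, and 5 complement genes. The tissue is the whole brain hemisphere of naive rats that received no treatment, from heterogeneous stock, an outbred population bred from several inbred strains. They form a single group with no treatment arm, and the labels give no age or sex. PolyA RNA was sequenced. Every library of the table was used and counted as a rat of its own. The labels do not state this, so a p-value refers to the spread between libraries.

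Microglia are the resident macrophages of brain tissue. They depend on signalling through the receptor Csf1r and on the transcription factors Spi1 (PU.1) and Irf8, survey the tissue with purinergic receptors such as P2ry12, and engulf debris and synaptic material. Border macrophages sit in the meninges, around vessels and in the choroid plexus, and are marked by scavenger receptors such as Mrc1, Cd163 and Lyve1. Complement begins with C1q, which microglia make, and runs through C4 and C3, which astrocytes and other cells can also make. C3 fragments bound to a surface are read by the receptor whose alpha chain is Itgam.

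Library totals ran from 5418230 to 42980793 estimated counts (median 21881769), with 22962 to 27876 genes above 0 per library. Each library was scaled to a total of 1000000 counts (counts per 1000000, CPM), and a level is log2(CPM + 1), so fold changes of low genes are understated. Levels are not per transcript length and are compared between libraries, not between genes. A hemisphere is bulk tissue, so fewer cells of a type and less RNA per cell cannot be told apart. Of 24 genes from lists of blood leukocytes, 7 had a median estimated count of 0 over libraries, among them the defining genes Cd3d of T cells, Ms4a1 of B cells, Nkg7 of natural killer cells and Elane of neutrophils. Other listed genes were above 0 in all libraries, namely Cd4 (mean level 3.22) and, with median counts of 31, 40, 25 and 13, Lck, Pax5, Jchain and Plac8. Summed over each list, 9 T and natural killer cell genes took between 7.08 and 16.7 CPM, 6 B cell genes 1.82 to 5.41 CPM and 9 neutrophil and monocyte genes 0.566 to 6.71 CPM. None of the 40 genes was at 0 in any library. Library brain-342 stood apart from the rest, with the highest level of 18 of the 40 genes, and counts that change without it are given below.

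Promoter sequence is shown first because PU.1, the product of Spi1, binds purine-rich motifs with a GAGGAAG core, and the genes can be told apart by whether these letters stand close to their start. RefSeq promoters of the assembly GRCr8, from 250 bases before to 50 after the start, were in the table used for 29 of the 40 genes. GAGGAAG, searched on both strands, stood in 13 of these 29 promoters (44.8%), against 12.4% of all 33469 promoters of the same length. In the window from 100 bases before to 50 after the start it stood in 10 of 29 (34.5%), against 6.86% of all promoters. By role, 6 of 8 promoters of signalling genes held it, as did 4 of 5 of lysosome and sensing genes, 2 of 7 of surface genes, 1 of 5 of border macrophage genes and 0 of 4 of complement genes. A match is a description of letters and not a shown binding site. The windows of the 6 signalling genes that hold it, of the protease gene Ctss and of Mrc1, which alone holds it among the border macrophage genes, read as follows, 5′ to 3′ on the gene's strand, with capitals marking GAGGAAG or its reverse complement.
Trem2 (chr9:20151730-20151879, minus strand): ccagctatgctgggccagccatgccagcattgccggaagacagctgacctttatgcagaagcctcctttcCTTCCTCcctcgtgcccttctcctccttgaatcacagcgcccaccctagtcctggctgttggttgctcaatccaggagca
Inpp5d (chr9:95735433-95735582, plus strand): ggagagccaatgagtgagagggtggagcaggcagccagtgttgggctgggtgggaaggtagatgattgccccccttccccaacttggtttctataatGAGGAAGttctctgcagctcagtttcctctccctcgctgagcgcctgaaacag
Cyth4 (chr7:112032682-112032831, plus strand): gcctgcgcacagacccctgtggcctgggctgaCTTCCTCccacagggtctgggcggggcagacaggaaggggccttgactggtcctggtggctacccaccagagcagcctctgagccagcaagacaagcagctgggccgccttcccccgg
Cd53 (chr2:197087847-197087996, minus strand): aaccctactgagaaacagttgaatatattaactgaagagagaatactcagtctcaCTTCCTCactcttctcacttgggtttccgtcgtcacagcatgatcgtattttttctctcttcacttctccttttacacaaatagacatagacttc
Itgam (chr1:192089492-192089641, plus strand): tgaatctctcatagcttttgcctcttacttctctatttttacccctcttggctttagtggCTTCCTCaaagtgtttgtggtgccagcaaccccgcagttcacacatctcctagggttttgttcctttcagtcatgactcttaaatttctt
Laptm5 (chr5:148371780-148371929, plus strand): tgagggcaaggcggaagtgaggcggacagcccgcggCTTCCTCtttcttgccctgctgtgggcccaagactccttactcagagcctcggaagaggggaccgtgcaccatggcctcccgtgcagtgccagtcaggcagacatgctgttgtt
Ctss (chr2:185775296-185775445, plus strand): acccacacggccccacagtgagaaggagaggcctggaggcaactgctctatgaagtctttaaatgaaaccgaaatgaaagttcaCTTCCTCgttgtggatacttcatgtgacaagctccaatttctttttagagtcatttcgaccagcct
Mrc1 (chr17:82157625-82157774, plus strand): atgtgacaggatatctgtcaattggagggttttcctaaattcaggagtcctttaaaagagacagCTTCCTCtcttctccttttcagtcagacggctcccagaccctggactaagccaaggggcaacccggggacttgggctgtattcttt

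In these 8 windows the first base of the match lay between 68 bases (Cyth4) and 3 bases (Inpp5d) before the start of the promoter set. For some genes that start differs from the gene start used for distances between start sites. For Cyth4, Itgam and Ctss the gene begins inside the window and ahead of the match, at 112032711, 192089496 and 185775316. The composite motif at which PU.1 and Irf8 can bind together, GGAA and GAAA with any 2 bases between them, stood in 2 of the 29 promoters, those of Cd68 and Cd74 (6.9%, against 2.94% of all promoters). TATAAA stood in 4 of 29 (13.8%), against 14.2% of all promoters.

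The levels of the 40 genes in each library are shown in the plot of levels by gene. The surface genes come first. Cx3cr1, the receptor of the neuronal chemokine fractalkine, had levels from 4.43 to 5.38 (median 4.92, SD 0.17). Csf1r, on which microglial survival rests, ran from 5.64 to 6.42 (median 5.99, SD 0.11), a fold of 1.29 between the 5th and 95th percentiles of libraries. P2ry12, the ADP receptor of microglial processes, ran from 3.13 to 4.63 (median 3.68, SD 0.28), and Tmem119, a membrane protein used as a microglial marker, from 2.92 to 4.76 (median 4.18, SD 0.26). Over the 11 surface genes the fold between these percentiles lay between 1.29 and 1.84, the highest being that of Slc2a5, a fructose transporter.

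**Figure D1:**
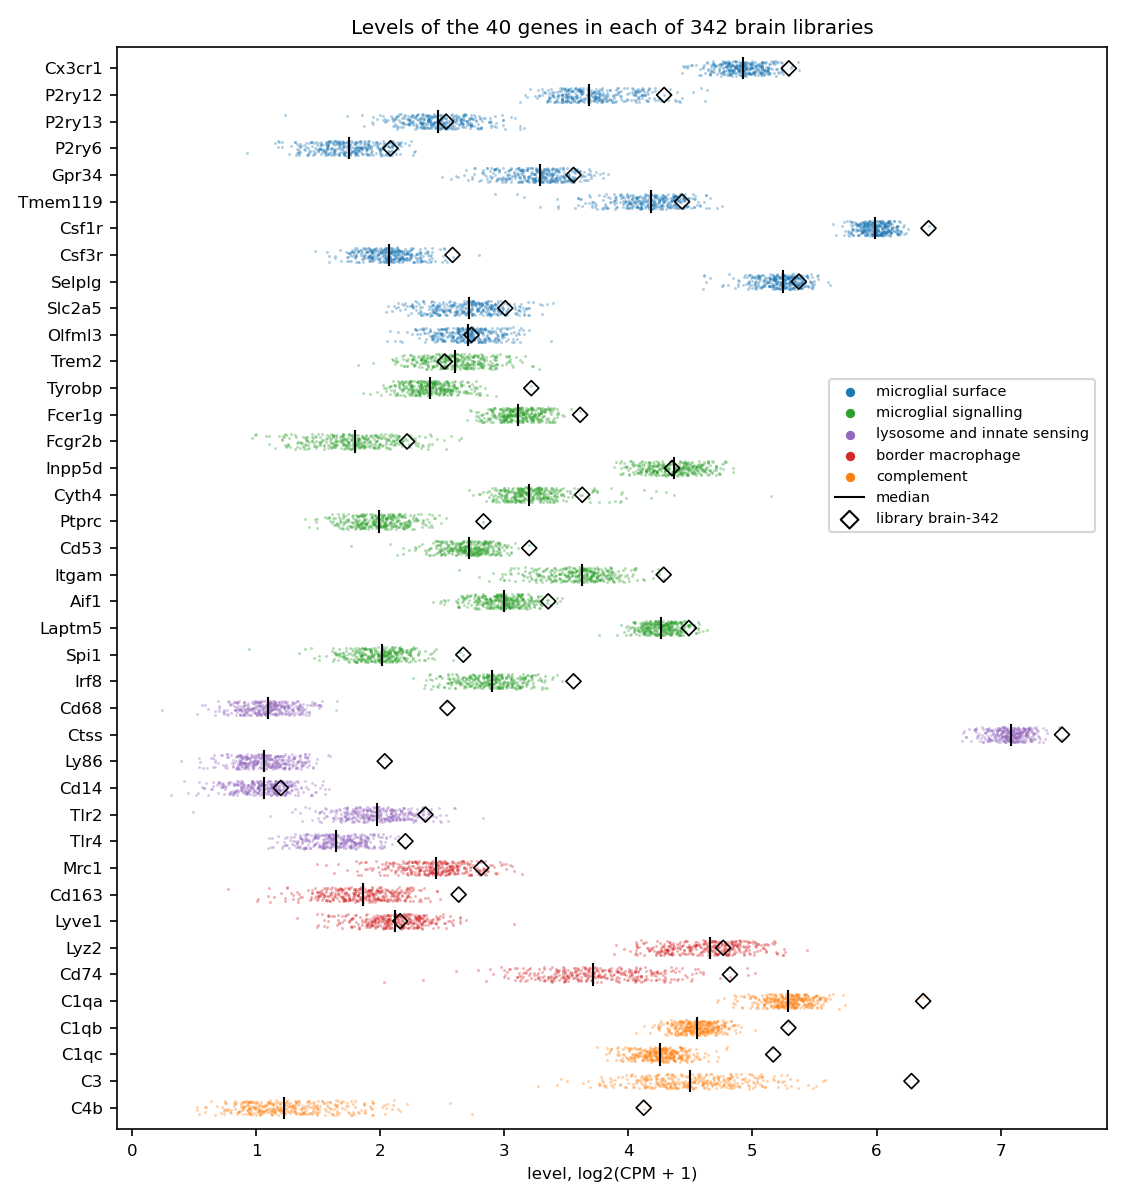
Level of each of the 40 genes, log2(CPM + 1) on the x axis, in the brain libraries; each point is a library, the black bar is the median, colours give the role and the diamond is library brain-342. Cd74 and C3 spread widest (SD 0.43 and 0.41), and the diamond lies beyond all other points for C4b, C3 and the C1q genes.

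Among the signalling genes, Trem2, a lipid receptor, ran from 1.82 to 3.28 (median 2.60, SD 0.24), and its adaptor Tyrobp from 1.86 to 3.22 (median 2.40, SD 0.19). Laptm5, a lysosomal membrane protein of haematopoietic cells, ran from 3.76 to 4.63 (median 4.27, SD 0.13). Fcgr2b, the inhibitory Fc receptor, had the highest fold of this role between the 5th and 95th percentiles of libraries, at 2.07. Of the lysosomal genes, Ctss, the protease cathepsin S, ran from 6.69 to 7.49 (median 7.08, SD 0.13), a spread 4.92 times that of counting error alone. In contrast, Cd68, Ly86, Cd14, Tlr4 and the surface gene Csf3r had an SD under 1.5 times the counting error (1.36, 1.30, 1.32, 1.47 and 1.44 times). The spread of these 5 genes between libraries was therefore only moderately wider than counting error, and for Cd68 and Ly86 it includes the values in library brain-342 given below.

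A total of 4 of the 40 genes had an SD at least 2 times that of genes of the same level, against 5.21% of all 16683 genes tested, those whose mean level reached 1. These were C3 (3.45 times), Cd74 (3 times), Lyz2 (2.54 times) and Tmem119 (2.05 times). The median ratio over the 40 genes was 1.25, against 0.988 over all genes tested. C3, the central complement protein, ran from 3.28 to 6.28 (median 4.50, SD 0.41). Cd74, the invariant chain of MHC class II, ran from 2.03 to 5.02 (median 3.72, SD 0.43), and Lyz2, the lysozyme of macrophages, from 3.88 to 5.44 (median 4.65, SD 0.30). The receptors of border macrophages spread less, from 1.49 to 3.14 for Mrc1 (median 2.45, SD 0.27), 0.77 to 2.63 for Cd163 (median 1.86, SD 0.29) and 1.33 to 3.08 for Lyve1 (median 2.12, SD 0.25).

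A mixture of normal curves gave separate levels for 1 of the 40 genes, Cyth4, which encodes an exchange factor for Arf GTPases. Most libraries lay around 3.20 and 17 libraries (4.97%) around 4.01, a gap of 4.26 SD, and the highest reached 5.15. The weight of the upper curve in the fit was 5.64%, just above the 5% asked for, so that this call is borderline. P2ry12 also had a better fit with 2 curves, at 3.60 and 4.10, but their gap of 2.83 SD was under the 4 SD asked for.

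The 3 genes of C1q, the recognition molecule that starts the classical complement pathway, moved together. C1qa ran from 4.72 to 6.38 (median 5.29), C1qb from 4.06 to 5.29 (median 4.55) and C1qc from 3.74 to 5.17 (median 4.26). Over all libraries the correlation of C1qa with C1qc was r = 0.76 (rho = 0.70), that of C1qa with C1qb r = 0.62 (rho = 0.58) and that of C1qb with C1qc r = 0.59 (rho = 0.52). Each had a two-sided permutation p of 1e-05, the smallest that 100000 permutations can give (2.19e-05 for r and 2.3e-05 for rho, adjusted over 46 pairs). With the 2 libraries of most extreme level of the gene named first left out, these r were 0.73, 0.58 and 0.55. Within 7 blocks of libraries with alike identifiers, r lay between 0.64 and 0.97 for C1qa with C1qc. The start sites of C1qa and C1qc lie 5725 bases apart on chromosome 5, and those of C1qa and C1qb 12106 bases.

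**Figure D2:**
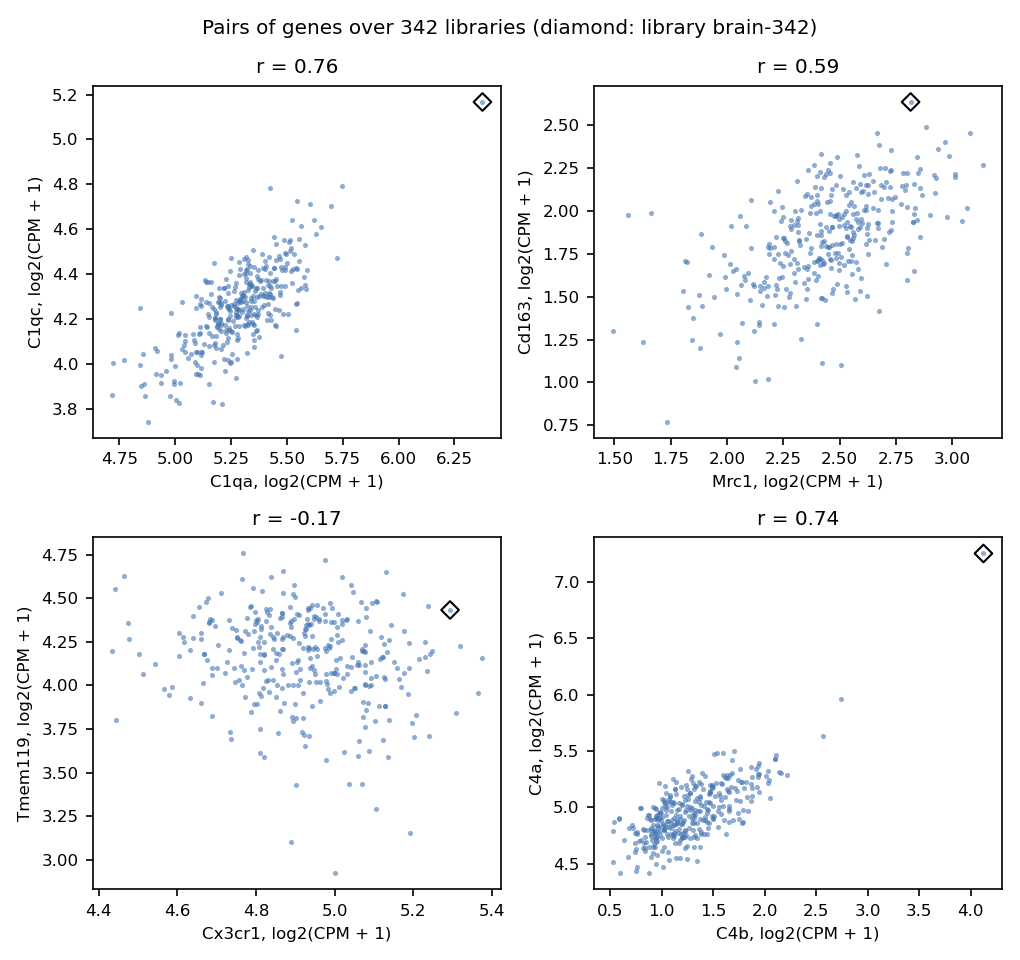
Levels of 4 pairs of genes, log2(CPM + 1) on both axes, with 1 point per library and library brain-342 as a diamond. C1qa and C1qc (r = 0.76), Mrc1 and Cd163 (r = 0.59) and C4b and C4a (r = 0.74) rose together, while Cx3cr1 and Tmem119 had r = -0.17.

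Of the 46 pairs computed, chosen for a molecular or cellular relation, 31 passed an adjusted p of 0.05 for both r and rho, 30 with a positive r and 1 with a negative r. Among receptor pairs, P2ry12 and P2ry13, ADP receptors whose start sites lie 48464 bases apart on chromosome 2, had r = 0.57 (rho = 0.57, permutation p = 1e-05, adjusted 2.19e-05), with 0.56 without 2 libraries and 0.43 to 0.71 within blocks. Cx3cr1 and Csf1r had r = 0.51 (rho = 0.46, permutation p = 1e-05, adjusted 2.19e-05), with 0.15 to 0.83 within blocks. Trem2 and its adaptor Tyrobp had r = 0.21 (rho = 0.19, permutation p = 8e-05, adjusted 0.000153), and within blocks from -0.37 to 0.62. Tyrobp and Fcer1g, the other adaptor chain of microglial receptors, had r = 0.44 (rho = 0.42, permutation p = 1e-05, adjusted 2.19e-05), with -0.25 to 0.73 within blocks. The transcription factors Spi1 and Irf8 had r = 0.34 (rho = 0.34, permutation p = 1e-05, adjusted 2.19e-05), with 0.38 without 2 libraries and 0.14 to 0.75 within blocks.

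The pair with a negative r was Cx3cr1 and Tmem119, at r = -0.17 (rho = -0.16, permutation p = 0.00162, adjusted 0.00257), and r was positive in 2 of 7 blocks. Both genes are widely used as microglial markers. Without 2 libraries r was -0.16, and in the 4 largest blocks it lay between -0.28 and -0.09. Tmem119 followed Selplg, a selectin ligand whose start site lies 32055 bases away on chromosome 12, with r = 0.62.

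Among receptor and ligand pairs, Csf1r and Csf1 had r = 0.35 (rho = 0.30, permutation p = 1e-05, adjusted 2.19e-05), and 0.23 to 0.77 within blocks. Csf1r and its neuronal ligand gene Il34 had r = 0.04 (permutation p = 0.493, adjusted 0.516), and Cx3cr1 and its ligand gene Cx3cl1 had r = -0.08 (permutation p = 0.166, adjusted 0.186), neither past the threshold. Tlr2 and Tlr4, sensors of bacterial lipoproteins and of lipopolysaccharide, had r = 0.09 (permutation p = 0.0838, adjusted 0.104). Tlr4 with its co-receptor Cd14 had r = 0.10 (permutation p = 0.0674, adjusted 0.0861). That pair passed for rho alone (rho = 0.12, permutation p = 0.0316, adjusted 0.0441).

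As a whole the 40 genes were loosely tied. The mean r over their 780 pairs was 0.12, against 0.013 over all pairs of tested genes, with a range of -0.36 to 0.76 and 80 pairs over 0.3. The mean r was 0.37 within the complement genes, 0.20 within the border macrophage genes, 0.19 within the signalling genes, 0.13 within the surface genes and 0.09 within the lysosome and sensing genes. The lowest r, -0.36, was that of the surface genes Gpr34 and Tmem119. Without library brain-342 the mean over 780 pairs was 0.11.

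**Figure D3:**
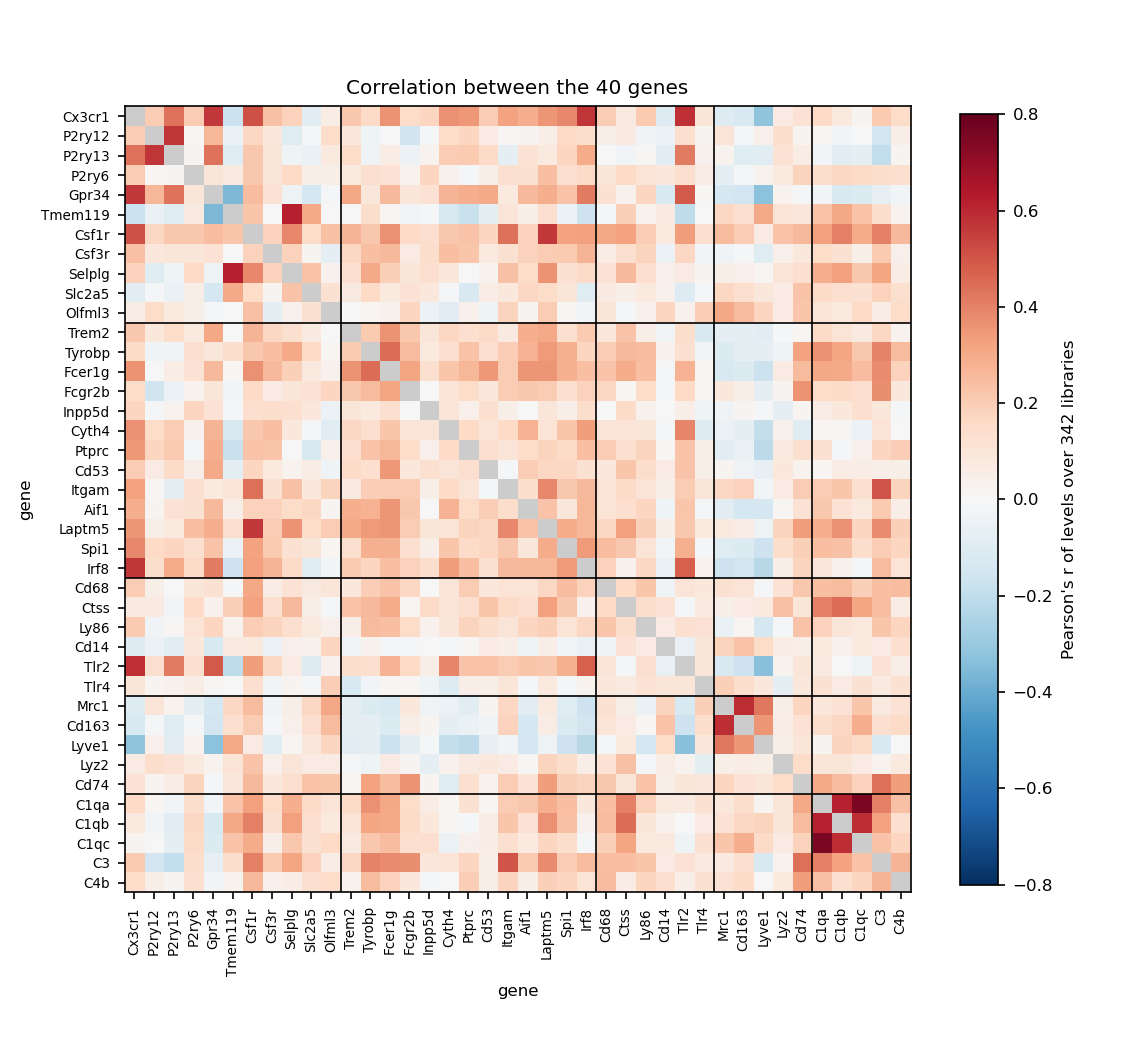
Pearson's r between the levels of the 40 genes over all libraries, with genes on both axes in order of role, black lines between roles and the diagonal in grey. The C1q genes form the reddest block (up to 0.76), and Lyve1 and Tmem119 are blue against Cx3cr1 and Gpr34 (down to -0.36).

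For 17 of the 40 genes the gene most alike among all tested genes was another of the 40. Some of these are neighbours on a chromosome, namely P2ry12 and P2ry13, Tmem119 and Selplg, and the C1q genes. The share for other lists of 40 genes was not computed, so the count of 17 has no background. For 11 of the 40 (27.5%) the most alike gene had its start site within 1000000 bases, against 6.97% of all tested genes. For 4 of these 11 it lay outside the list: Slc2a5 with LOC134479047 (r = 0.54, 35915 bases), Inpp5d with LOC134480608 (r = 0.53, 83251 bases), P2ry6 with Ucp2 (r = 0.39, 491316 bases) and C4b with C4a (r = 0.74, 191673 bases). Inpp5d, the lipid phosphatase SHIP1, had r of at most 0.17 (P2ry6) with any of the other 39. Whether overlapping or alike transcripts share reads in such pairs was not tested.

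How the genes follow a microglial marker was tested with limma slopes of each gene on the level of Cx3cr1, in log2 level per SD of Cx3cr1, with Benjamini-Hochberg adjustment over all 16682 other genes. Of the 39 other genes of the list, 26 rose with Cx3cr1, 2 fell and 11 did not pass, against 13.4% of all genes that rose and 15.7% that fell. The median slope of the 39 was 0.0459, against -0.00223 over all genes. All 13 signalling genes rose. The count was 12 without library brain-342, where Tyrobp did not pass (limma adjusted p = 0.0534), 12 with genes of other cell types as covariates, where Fcgr2b did not (adjusted p = 0.195), and 11 with the identifier block as covariate, where Fcgr2b and Inpp5d did not. The steepest were Irf8 (0.130 ± 0.0101 SE, limma adjusted p = 7.48e-28), Cyth4 (0.098 ± 0.0135, adjusted p = 1.6e-10) and Itgam (0.0843 ± 0.0135, adjusted p = 5.25e-08). Spi1 rose by 0.0797 ± 0.0104 (limma adjusted p = 1.89e-11) and Trem2 by 0.0516 ± 0.0126 (adjusted p = 0.000546). Aif1, a calcium-binding protein whose antibody stain marks microglia, rose by 0.0537 ± 0.00966 (limma adjusted p = 1.47e-06).

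Of 10 surface genes, 7 rose with Cx3cr1, Tmem119 fell and 2 did not pass. Gpr34, a receptor of lysophosphatidylserine, had the steepest slope among them (0.137 ± 0.0108, limma adjusted p = 2.77e-27), followed by P2ry13 (0.109 ± 0.0122, adjusted p = 4.2e-15). Tmem119 had a slope of -0.0449 ± 0.0141 (limma adjusted p = 0.00858), and Slc2a5 (-0.0242) and Olfml3 (0.0129), a secreted glycoprotein, did not pass. Of the 6 lysosome and sensing genes, Tlr2 (0.155 ± 0.0117, limma adjusted p = 4.12e-29), Cd68 (0.0438) and Ly86 (0.0435) rose. Ctss, Cd14 and Tlr4 did not pass, with slopes of 0.00939, -0.0214 and 0.0208.

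None of the 5 border macrophage genes of the list rose with Cx3cr1, whereas 4 of 6 tested genes of a further border macrophage list did, namely Colec12 (0.0727), Dab2 (0.056), Stab1 (0.0322) and F13a1 (0.0312). Lyve1, a hyaluronan receptor, fell (-0.0797 ± 0.0126, limma adjusted p = 2.97e-08), and Mrc1, Cd163, Lyz2 and Cd74 did not pass, with slopes of -0.0282, -0.0342, 0.0200 and 0.0490. Of the 5 complement genes, C1qa (0.0299 ± 0.00979, limma adjusted p = 0.0125), C3 (0.0865 ± 0.0217, adjusted p = 0.000804) and C4b (0.0579 ± 0.0211, adjusted p = 0.0259) rose. C1qb (0.0125) and C1qc (0.00342) did not pass. Without library brain-342 the slope of C4b was 0.04 (limma adjusted p = 0.109), and with genes of other cell types as covariates, as below, none of the 3 passed (adjusted p of 0.0782, 0.0864 and 0.43).

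Other genes moved with Cx3cr1 too. In a list of 33 further microglial genes, 31 were tested, of which 20 rose and 1 fell. Cd33, a sialic acid receptor, rose by 0.110 and Sall1, a transcription factor of microglia, by 0.0609, while the phagocytic receptor Mertk had a slope of -0.0596 (limma adjusted p = 6.36e-08). Of 10 meningeal fibroblast genes 7 rose with Cx3cr1, of 8 endothelial and pericyte genes 6, and of 7 oligodendrocyte genes 5, with 1 fall. Their part in the slopes was not tested beyond a fit with covariates. With Snap25, Gfap, Mobp, Cldn5 and Col1a2 as covariates, genes of neurons, astrocytes, oligodendrocytes, endothelium and fibroblasts, 22 of the 39 rose and 6 fell, against 10.4% and 9.01% of all genes. Mrc1 (-0.0684), Cd163 (-0.0702), Lyve1 (-0.0943), Tmem119, Slc2a5 and Cd14 were the 6 that fell. Without library brain-342, 24 rose and 3 fell, against 13.4% and 16.2% of all genes, the added fall being that of Cd163 (-0.0397). The 10 genes most alike to Cx3cr1 over libraries held 3 of the list, Tlr2 (r = 0.58), Irf8 (0.57) and Gpr34 (0.56). They were led by Vsir (r = 0.64), an immune checkpoint protein, and Slco2b1 (0.61), a transporter, and also held Gpr37 (0.52), a receptor of oligodendrocytes.

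**Figure D4:**
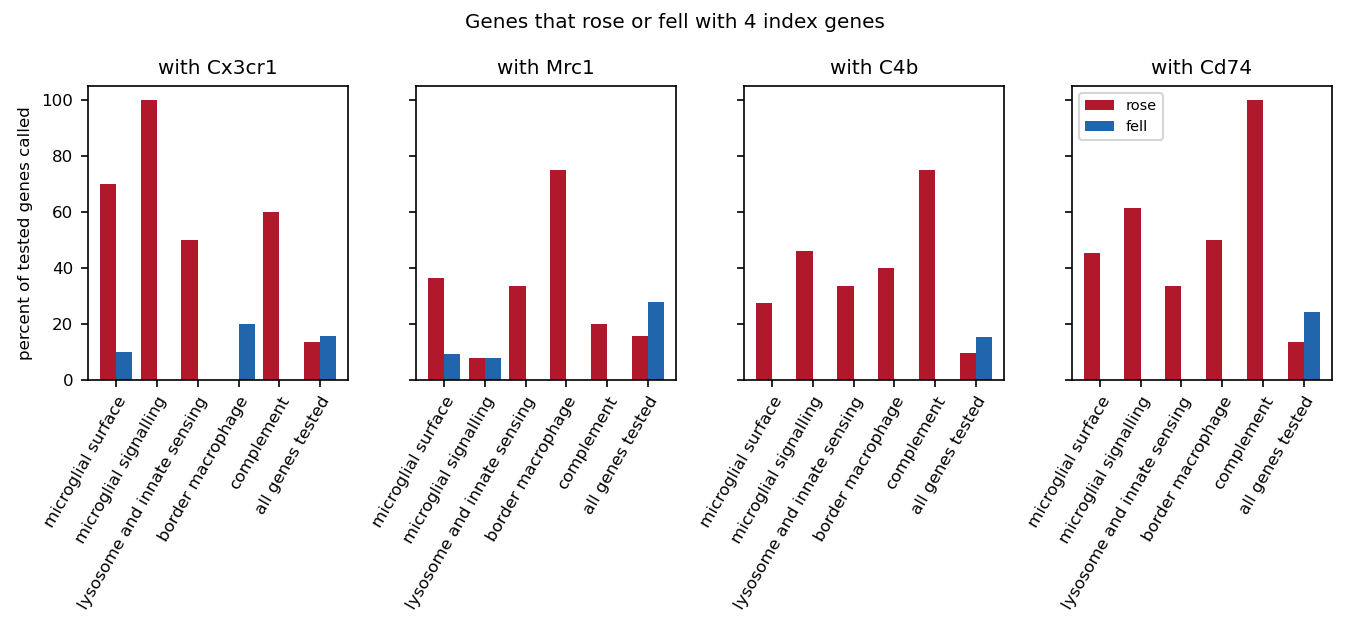
Percent of tested genes of each role, and of all genes tested, that rose (red, left bar) or fell (blue, right bar) with Cx3cr1, Mrc1, C4b and Cd74 (limma, adjusted p under 0.05). All 13 signalling genes rose with Cx3cr1 (12 without library brain-342), against 13.4% of all genes, and 3 of 4 border macrophage genes rose with Mrc1, against 15.7% of all genes.

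With Mrc1, the mannose receptor, 11 of 39 genes rose and 2 fell, against 15.7% of all genes that rose and 27.7% that fell. With libraries scaled by median ratios, 15 of the 39 genes rose and 2 fell, against 22.9% of all genes that rose and 21.9% that fell. Of the other border macrophage genes, Cd163, a haemoglobin scavenger receptor (0.169 ± 0.0125, limma adjusted p = 1.39e-29), Lyve1 (0.103 ± 0.0121, adjusted p = 2.13e-13) and Cd74 (0.0733 ± 0.0230, adjusted p = 0.00564) rose. Lyz2 did not pass (0.0142). Gpr34 (-0.0339, limma adjusted p = 0.0244) and Irf8 (-0.0378, adjusted p = 0.00674) fell. All 6 tested genes of the further border macrophage list rose, among them Clec10a (0.0757) and F13a1 (0.0747), as did all 10 meningeal fibroblast genes, for example Col1a2 (0.129). The fibroblast genes summed to a median of 363 and at most 543 CPM per library, with r = 0.46 against Mrc1. The rise was not confined to genes of the borders. Of 7 astrocyte genes 6 rose with Mrc1 and 1 fell, and their sum had r = 0.43 against Mrc1. Of 6 choroid plexus genes 4 rose, and of 8 endothelial and pericyte genes 1. Without library brain-342, 11 of the 39 rose and 5 fell, against 15.5% and 27.8% of all genes, the added falls being those of Tyrobp, Fcer1g and Tlr2. With the 5 cell type genes named above as covariates, 4 of the 39 rose with Mrc1, namely Cd163 (0.149), Lyve1 (0.116), Tmem119 (0.05) and C1qc (0.0416), against 8.33% of all genes. In that fit 7 fell, against 9.5% of all genes: Cx3cr1 (-0.0501), Fcer1g, Gpr34, Irf8, Ptprc, Spi1 and Tlr2.

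The scavenger receptors were tied pairwise. Mrc1 and Cd163 had r = 0.59 (rho = 0.58, permutation p = 1e-05, adjusted 2.19e-05) and 0.52 to 0.64 within blocks. Mrc1 and Lyve1 had r = 0.42 (rho = 0.35, permutation p = 1e-05, adjusted 2.19e-05) and -0.09 to 0.74 within blocks. Mrc1 and Lyz2 had r = 0.05 (permutation p = 0.377, adjusted 0.413). Mrc1 and the fibroblast collagen gene Col1a2 had r = 0.45 (rho = 0.43, permutation p = 1e-05, adjusted 2.19e-05), with 0.30 to 0.63 within blocks.

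Whether the genes followed Cx3cr1 and Mrc1 unequally was tested in a joint limma fit on both levels. Of 38 genes, 23 had unequal slopes, 16 steeper on Cx3cr1 and 7 steeper on Mrc1, against 14% and 10.5% of all genes (24.4% in all). The 16 held 9 of the 13 signalling genes, the surface genes P2ry13, P2ry6, Gpr34, Csf1r and Csf3r, and Tlr2 and Ly86. Among these 16 the difference was widest for Tlr2 (slopes of 0.153 on Cx3cr1 and -0.0158 on Mrc1, limma adjusted p = 7.29e-21), Gpr34 (0.135 and -0.0201, adjusted p = 1.04e-20) and Irf8 (0.127 and -0.0248, adjusted p = 1.44e-22). The 7 were Cd163 (-0.0171 on Cx3cr1 and 0.167 on Mrc1, limma adjusted p = 1.05e-21), Lyve1 (-0.0699 and 0.0959, adjusted p = 8.45e-21), Tmem119, Slc2a5, Olfml3, Cd14 and C1qc. For Tmem119 the slopes were -0.0409 on Cx3cr1 and 0.0396 on Mrc1 (limma adjusted p = 0.000343). Genes of other cell types split too. The oligodendrocyte gene Opalin, the gene most alike to Gpr34 (r = 0.6), had slopes of 0.111 and -0.0613. That difference of 0.172 compares with 0.169 for Tlr2. The astrocyte gene Sox9 had 0.0825 and -0.0367, whereas the astrocyte genes Slc1a3, Aldh1l1 and Gja1 and the oligodendrocyte gene Mal were steeper on Mrc1.

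**Figure D5:**
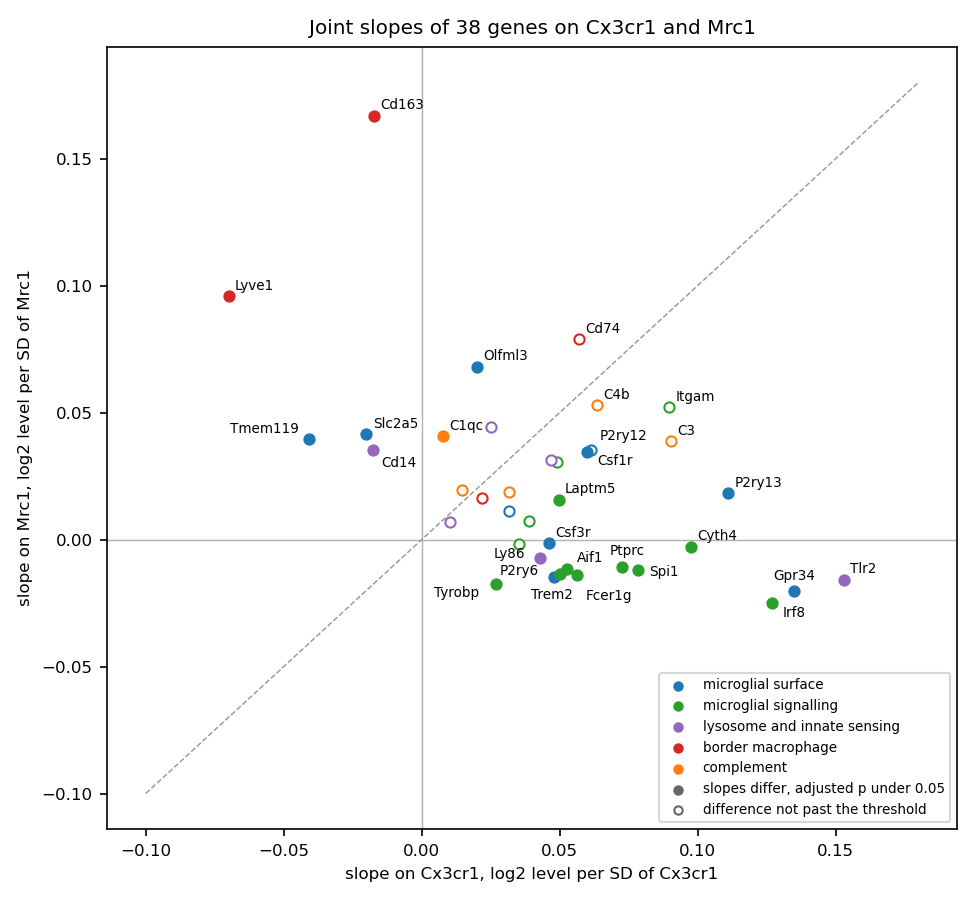
Slopes of 38 genes in a joint fit, on Cx3cr1 (x axis) and on Mrc1 (y axis), both in log2 level per SD of the named gene; filled points have unequal slopes (limma adjusted p under 0.05) and the dashed line marks equal slopes. Tlr2, Gpr34 and Irf8 lie far right of the line, and Cd163 and Lyve1 far above it.

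In the joint fit on Cx3cr1 and Gfap, the filament gene of astrocytes, 21 of 39 genes had unequal slopes, against 47.1% of all genes. Of these, 12 were steeper on Cx3cr1 and 9 on Gfap, against 30.3% and 16.8% of all genes. The 12 of 39 are close to the share of all genes, so that count is not a trait of the list. The 12 held 8 of 13 signalling genes, and the 9 held Mrc1, Cd163, Lyve1, Cd74 and C4b. C4b and Gfap had r = 0.31 (rho = 0.30, permutation p = 1e-05, adjusted 2.19e-05), with -0.08 to 0.78 within blocks.

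C4b ran from 0.53 to 4.12 (median 1.22, SD 0.39), and its highest value, in library brain-342, lay far above the next highest of 2.74. Its near-identical copy C4a lies 191673 bases away, and how the estimated counts were split between the copies is uncertain. With C4b, 16 of 39 genes rose and 0 fell, against 9.43% of all genes that rose and 15.3% that fell. In the median ratio scaling 22 of 39 rose and 0 fell, against 15.7% and 14.3% of all genes. Without library brain-342, 7 of 39 rose and 0 fell, against 10.9% and 19.2% of all genes. The 7 were Cd74 (0.133, limma adjusted p = 7.05e-07), C3 (0.0807), Itgam, Tyrobp, Olfml3, Laptm5 and Csf1r. C1qa and C1qc, which rose with C4b over all libraries (0.0434 and 0.0315), had slopes of 0.0221 and 0.0132 without that library and did not pass. With the 5 cell type genes as covariates, 4 rose (C3, Cd68, Cd74 and Tyrobp) and 0 fell, against 0.893% and 0.132% of all genes.

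The genes most alike to C4b were other complement genes and genes known to respond to interferon. C4a had r = 0.74 (0.69 without library brain-342), Cfb, complement factor B, 0.70 (0.64), and Irf7, an interferon regulatory factor, 0.70 (0.65). Usp18, Oas1a, Parp14 and Rtp4 followed, between 0.66 and 0.59, with the class I genes RT1-T24-4 (0.65) and RT1-S3 (0.59). None of these genes belongs to the 40. Over a list of 35 further complement genes, 26 were tested, and 11 rose with C4b and 4 fell. C1r, C1s and C2 rose by 0.0805, 0.0790 and 0.0963, and the C1 inhibitor gene Serping1 by 0.111. All 6 choroid plexus genes and 8 of 10 meningeal fibroblast genes rose with C4b as well, and their part in its slopes was not tested apart from the covariates.

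With Cd74, 22 of 39 genes rose and 0 fell, against 13.5% of all genes that rose and 24.3% that fell. In the median ratio scaling 26 rose and 0 fell, against 23.6% and 21.6% of all genes. All 5 complement genes rose, C3 by 0.182 ± 0.0200 (limma adjusted p = 1.7e-14), C4b by 0.133 ± 0.0201 (adjusted p = 2.18e-08) and C1qa by 0.0555 ± 0.00946 (adjusted p = 4.03e-07). Fcgr2b rose by 0.111 ± 0.0157 (limma adjusted p = 2.86e-09) and Tyrobp by 0.0606 ± 0.00963 (adjusted p = 6.83e-08). Without library brain-342, 21 rose and 0 fell, against 13.7% and 25.1% of all genes, with all 5 complement genes among them. Cx3cr1 (0.0195), P2ry12 (0.00558) and Trem2 (0.00370) did not pass. All 6 choroid plexus genes and 9 of 10 meningeal fibroblast genes also rose with Cd74, at medians of 690 and 363 CPM per library over each list. With the 5 cell type genes as covariates 9 of the 39 rose and 0 fell, against 0.654% and 0.186% of all genes, among them C3 (0.169), Fcgr2b (0.119), C4b (0.089), C1qa (0.0443) and C1qb (0.0316).

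The genes most alike to Cd74 were its partners of MHC class II. RT1-Da had r = 0.83 (rho = 0.82, permutation p = 1e-05, adjusted 2.19e-05), with 0.83 without 2 libraries and 0.32 to 0.86 within blocks. RT1-Ba had r = 0.75, RT1-Bb 0.67 and RT1-Db1 0.65. Ciita, the activator of class II transcription, had r = 0.24 (rho = 0.19, permutation p = 2e-05, adjusted 4.18e-05) at a mean level of 0.40. C3 was the 1 gene of the 40 among the 10 most alike (r = 0.44). C3 with Itgam, its receptor chain, had r = 0.50 (rho = 0.50, permutation p = 1e-05, adjusted 2.19e-05), and 0.33 to 0.77 within blocks.

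The labels give no batch, and libraries were grouped by the first 6 characters of their identifiers, which gave 7 blocks of at least 8 libraries. By limma's moderated F-test 8 of the 40 genes differed between blocks, against 8.21% of all genes. These were Cx3cr1 (F = 8.06, limma adjusted p = 1.89e-05), Csf1r (F = 6.99, adjusted p = 0.000126), Irf8, Cyth4, P2ry13, Tlr2, Fcer1g and Gpr34. Block means of Cx3cr1 lay between 4.75 and 4.99, those of Csf1r between 5.89 and 6.02, and those of P2ry13 between 2.23 and 2.60. A block of 18 libraries had the lowest mean for Cx3cr1, Csf1r, P2ry13, Gpr34 and Cyth4. Without the 5% of libraries with fewest genes above 0 the count was 3, and without the 14 libraries renamed after a mix-up it was 5. The shares of all genes in these settings are not given, so these counts cannot be set against all genes. With the block as covariate 24 of 39 genes rose with Cx3cr1 and 4 fell, against 11.3% and 10.8% of all genes. With Mrc1 12 rose and 6 fell, against 15% and 26.8%. With C4b 14 rose and 0 fell, against 8.05% and 13.6%, and with Cd74 21 rose and 0 fell, against 12.6% and 24.6%.

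Library brain-342 was singled out after its values were seen. It held the highest level of 18 of the 40 genes (45%), against 1.5% of all tested genes, and lay above the median of the other libraries for 38 of the 40 (95%), against 55% of all tested genes. All 5 complement genes were highest there. C4b was at 4.12 in brain-342, against a median of 1.22 and a maximum of 2.74 in the other libraries, a fold of 12.3 over the median in CPM. C3 was at 6.28, against a median of 4.49 and a maximum of 5.58 in the others (3.57-fold), and C1qa at 6.38, against 5.29 and 5.75 (2.15-fold).

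Cd68, a lysosomal glycoprotein of phagocytes, was at 2.54 in brain-342, against a median of 1.10 and a maximum of 1.65 in the other libraries (4.23-fold), and Ly86, the partner of an innate receptor, at 2.04, against 1.06 and 1.60 (2.85-fold). Of the signalling genes 7 of 13 were highest there, for example Ptprc (2.83, against a median of 1.99 in the others) and Tyrobp (3.22, against 2.40). Of the surface genes 1 of 11 was highest, Csf1r (6.42, against a median of 5.99). Trem2 (2.52, against 2.60) and Inpp5d (4.35, against 4.37) lay below the median of the others. Outside the list, Siglec1, a macrophage receptor induced by interferon, was 8.91-fold over the median, C4a 5.15-fold, Cfb 4.26-fold and C2 3.26-fold.

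Plac8, from a list of 9 neutrophil and monocyte genes, was 7.87-fold over the median in brain-342 at a level of 2.58, against a median of 0.71 in the others. Mmp8 of that list was also highest there, at 7 estimated counts against a median of 0. The others stood at 0 to 14 counts, with S100a8, S100a9 and Elane at 5, 9 and 0. In CPM, S100a8 and S100a9 were 4.61-fold and 3.82-fold over the median, from median counts of 1 and 2 in the other libraries. Of the 9 genes 7 lay above the median of the other libraries. None of the genes of red blood cells, fibroblasts, endothelium, astrocytes, oligodendrocytes, neurons or choroid plexus in the lists was highest in brain-342. Several of them were among the highest, however. Gfap ranked 2 of all libraries there, at 9.45 against a median of 9.08 in the others, as did the fibroblast gene Col3a1 (5.42, against 4.72) and the endothelial gene Cdh5 (4.43, against 4.01). Of 9 T and natural killer cell genes 4 were among the first 10 libraries in brain-342. These were Cd4 (3.79, against 3.21), which macrophages of the rat also express, and the low genes Cd2, Gzmb and Nkg7. The low genes stood at 10, 6 and 4 estimated counts, against medians of 2, 0 and 0 in the others. Of the 9 genes 7 lay above the median of the others, while Cd3e and Cd8a lay below it. The part of these other cell types in the levels of that library was not tested. Its total was 23847632 estimated counts with 26698 genes above 0, it was not among the renamed libraries, and its block held 13 libraries.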

How the data were processed

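Frozen hemispheres of untreated rats were profiled by polyA RNA sequencing with a directional kit, per the labels' protocols. The submitters' processing notes name kallisto; neither its version nor its settings or annotation is stated there. The authors deposited log2 values, read here as log2 of the estimated count plus 1, not scaled for depth. Turned back, 63.2% of the values from 0.5 to 5 lie within 0.002 of a whole number. Of 352 labelled samples, 342 libraries were analysed (335 in blocks of alike identifiers) and 10 were not analysed here. Libraries are numbered by accession, as in brain-342.

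Levels are log2(CPM + 1), each library being scaled to 1000000. Genes of mean level at least 1 (16683) were tested with limma 3.58.1 in R 4.3.3, with a mean-variance trend and Benjamini-Hochberg adjustment over all of them, checked on simulated data. Slopes are per SD of an index gene. The expected SD was a lowess trend on level. Counting error treats reads as independent molecules. Pairs were tested with 100000 permutations. Mixtures of up to 3 normal curves with a common SD needed a gap of 4 SD and a weight of at least 5% in the fit for each curve. Coordinates, start sites and promoters come from RefSeq on GRCr8.

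All 40 members could be named, with genes of marker lists and pairs and the 10 genes of highest r with Cx3cr1, Mrc1, C4b, Cd74 or C1qa; only some of these are given, and 1 is not reported here. The members and lists were chosen with earlier results of these data known. Alternatives covered the pseudocount, scaling, level minimum, deposited values, covariates, identifier blocks, other index genes and excluded libraries; leaving out brain-342 or brain-4 was chosen after seeing the data.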

Additional observations from a re-analysis of the deposited data

How the results depend on the processing

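Results were recomputed with a pseudocount of 0.1, median ratio scaling, the deposited values, level minimums of 3 or none, 3 sets of covariates, block terms, other index genes and sets of libraries left out. Apart from the deposited values, 2108 recomputed slopes and pairs gave 0 reversals, with 1959 on the same side of the threshold, 84 that no longer passed and 65 that newly passed. With a level minimum of 3, which tests fewer of the genes, 5 of 18 differed between blocks, 11 of 17 rose with Cx3cr1, 5 of 18 with Mrc1, 9 of 18 with C4b and 10 of 17 with Cd74. Unequal slopes were then found for 8 of 17 (Mrc1) and 6 of 17 (Gfap), and 12 of 16 pairs passed. With the cell type genes as covariates 4 rose with Mrc1, 4 with C4b and 9 with Cd74. Differences between blocks numbered 3 when the 5% of libraries poorest in genes were left out, and 5 when renamed libraries were. With C3 in place of C4b 25 of 39 rose, and without brain-342, 7 rose with C4b. For all but the level minimum, the cause was not tested. Shares of all genes called are given above for the covariates and for brain-342 left out. For the other counts of this section they are not given, so those counts cannot be set against all genes. The deposited values hold differences in depth: with them 0 genes had an SD of 2 times the trend, 28 differed between blocks, and 39 of 39 rose with each of Mrc1, C4b and Cd74. The slopes on Mrc1 that changed sign then lay between 0.233 (Irf8) and 0.279 (Tlr2), with 0.255 for Aif1 and Trem2, 0.268 for Csf3r, 0.277 for Cx3cr1, 0.263 for Cyth4, 0.27 for Fcer1g, 0.251 for Gpr34, 0.269 for Inpp5d, 0.25 for Ly86, 0.26 for P2ry6, 0.257 for Ptprc and 0.262 for Spi1 and Tyrobp. On Cx3cr1 they were 0.354 for Cd14, 0.361 for Cd163, 0.302 for Lyve1, 0.338 for Mrc1, 0.334 for Slc2a5 and 0.323 for Tmem119. On C4b they were 0.186 for Cyth4, 0.183 for Gpr34 and 0.184 for Inpp5d, and on Cd74 0.197 for Cyth4 and 0.221 for Gpr34. The pairs Cd14 and Arc (0.29) and Cx3cr1 with Cx3cl1 (0.86), Mobp (0.84), Mrc1 (0.66) and Tmem119 (0.69) also changed sign. No paired analysis was possible because all libraries form a single group. Low genes such as Cd68, Ly86 and Cd14 rest on few counts, which limits what these depths show.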
